A study of Mus musculus with 13 samples.

Results

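The transcripts of 5 genes, the angiopoietin-like genes Angptl4, Angptl2 and Angptl6, the pyruvate dehydrogenase kinase gene Pdk4 and the nuclear receptor gene Ppard, were followed in 13 scRNA-seq libraries of mouse liver. They are 5 of the 55353 genes listed in the count tables. They were read in every barcode with at least 1500 unique molecular identifiers (UMIs), by marker-defined cell type and by day of diet. The set was put together with values of these data in view, among them the higher Angptl4 counts of biliary epithelial cells (BEC) on diet, so the levels of the 5 genes are given as a description and without p-values. No expression threshold was used to choose them.

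Male C57BL/6J mice aged 6 to 12 weeks received control chow or chow containing DDC, a dihydrocollidine xenobiotic that injures bile ducts, at 0.1%, and none carried a transgene or deletion. The atlas has 1 library for each of D0 (control chow), D3, D5, D9, D19 and D25 in each of 2 isolation protocols, called A and B, and the B library counted as D19 is labelled day 18. A further protocol B library, STOP, comes from mice that ate DDC for a prolonged time and then recovered for 7 days. Protocol A combined live singlets with gates for Epcam+, Cd45+, Pdpn+ and Lyve-1+ cells, for Cd31+ cells that were Lyve-1-, and for retinoid-autofluorescent cells. Protocol B combined live cells of a stellate cell preparation with gates for Epcam+ cells, for Cd45+ cells that were Itgax+ and Cd64-, and for Cd3e+ cells that were Lyve-1-. Gated populations were mixed at set ratios, so the number of cells of a type is a property of the sort. All libraries were 10x Genomics 3′ v3.1 libraries, single-indexed in protocol A and dual-indexed in protocol B. The labels give no animal for a library and do not say whether animals were pooled. Each p-value below thus measures only the spread between these libraries, estimated in part from all genes of a fit.

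ANGPTL4 is a secreted protein that inhibits lipoprotein lipase, the enzyme that frees fatty acids from circulating lipoproteins, and its gene is a classical target of the peroxisome proliferator-activated receptors (PPARs), which bind fatty acids and switch on genes of fatty acid oxidation. PPAR delta, the product of Ppard, is one of these receptors. PDK4 phosphorylates and inhibits the pyruvate dehydrogenase complex and thereby spares glucose when fatty acids are burned, and its gene is another PPAR target that also responds to fasting and glucocorticoids. ANGPTL6 is a circulating relative studied for its effects on energy balance, and ANGPTL2 is a relative linked to inflammation and matrix remodelling.

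In the GRCm38 assembly, Angptl4 (ENSMUSG00000002289) lies at chr17:33773750-33781830 on the minus strand and Ppard (ENSMUSG00000002250) on the same chromosome at chr17:28232700-28301474 on the plus strand. Pdk4 (ENSMUSG00000019577) lies at chr6:5483351-5496309 on the minus strand. Angptl6 (ENSMUSG00000038742) lies at chr9:20873808-20879727 on the minus strand and overlaps A230050P20Rik on the other strand. Angptl2 (ENSMUSG00000004105) lies at chr2:33216069-33247717 on the plus strand and overlaps Ralgps1 on the other strand. All are annotated as protein coding, and for the pair with an overlapping neighbour no strand setting of the counting was stated.

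The libraries held 29307190 to 108602421 UMIs, and 95563 of 17968683 barcodes had at least 1500 UMIs (1541 to 14764 per library, median 3350 to 12013 UMIs per cell). Any pair of libraries shared 1 to 49 of these barcodes, at most 0.519% of the smaller library. Cells were named from marker genes: 4703 were BEC-like, 20014 liver sinusoidal endothelial cell (LSEC)-like, 12500 macrophage-like, 1879 fibroblast-like and 905 hepatocyte-like. BEC-like cells were 3697 small duct-like and 1006 large duct-like cells. In the small duct-like clusters 12 of 13 BEC markers were detected, and also 6, 5 and 4 hepatocyte markers. The large duct-like cluster was led by S100g, Adgrg7, Slc26a3 and Muc3. All 6 large duct markers and 2 hepatocyte markers were detected in it. The summed large duct markers lay between 1259 and 2294 CPM in large duct-like cells and between 18.8 and 203 CPM in small duct-like cells, where CPM divides the UMIs of a gene by all UMIs of the same cell type and library and scales them to a constant total. D0 B held 2 BEC-like cells, so steady-state BEC rest on D0 A alone. An LSEC-like cluster of 2137 cells, of which 2057 came from D0 A, carried 7 hepatocyte markers. Free RNA was read from barcodes under 100 UMIs and from T-like and B-like cells, and levels are given beside it.

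Angptl4 was highest in large duct-like BEC of protocol A on diet. There it stood at 202 CPM (exact Poisson 95% interval 192 to 213, 1435 UMIs) on D9 and at 182 CPM (172 to 191, 1403 UMIs) on D25, against 20.7 CPM (11.05 to 35.5, 13 UMIs) in D0 A. Both diet libraries lay far above steady state, with no overlap of the intervals, which cover counting error only. A UMI of Angptl4 was found in 247 of 414 large duct-like cells on D9 (59.7%), in 277 of 388 on D25 (71.4%) and in 7 of 50 in D0 A (14%). When each cell was thinned to 1500 UMIs, the share was 19.3% on both days against 2% in D0 A.

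The protocol B libraries differed from this pattern and from each other. Large duct-like cells held 41.1 CPM (28.8 to 56.8) on D3 with 26 cells and 86.5 CPM (59.2 to 122) on D19 with 14 cells. They held 13.6 CPM (5.88 to 26.8) on D9 with 20 cells, 2.67 CPM (0.726 to 6.83) on D25 with 72 cells and 2.40 CPM in STOP, where 1 UMI was seen in 18 cells. D9 B and D25 B thus did not lie above D0 A, and D25 B lay below it with separate intervals. Among 8068 genes with at least 10 CPM, Angptl4 ranked 14th for the excess of A over B on D9 (difference of log2(CPM + 1) 3.796) and 4th on D25 (5.64). Protocol, index type and sorted populations differ together between A and B and cannot be told apart.

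**Figure D1:**
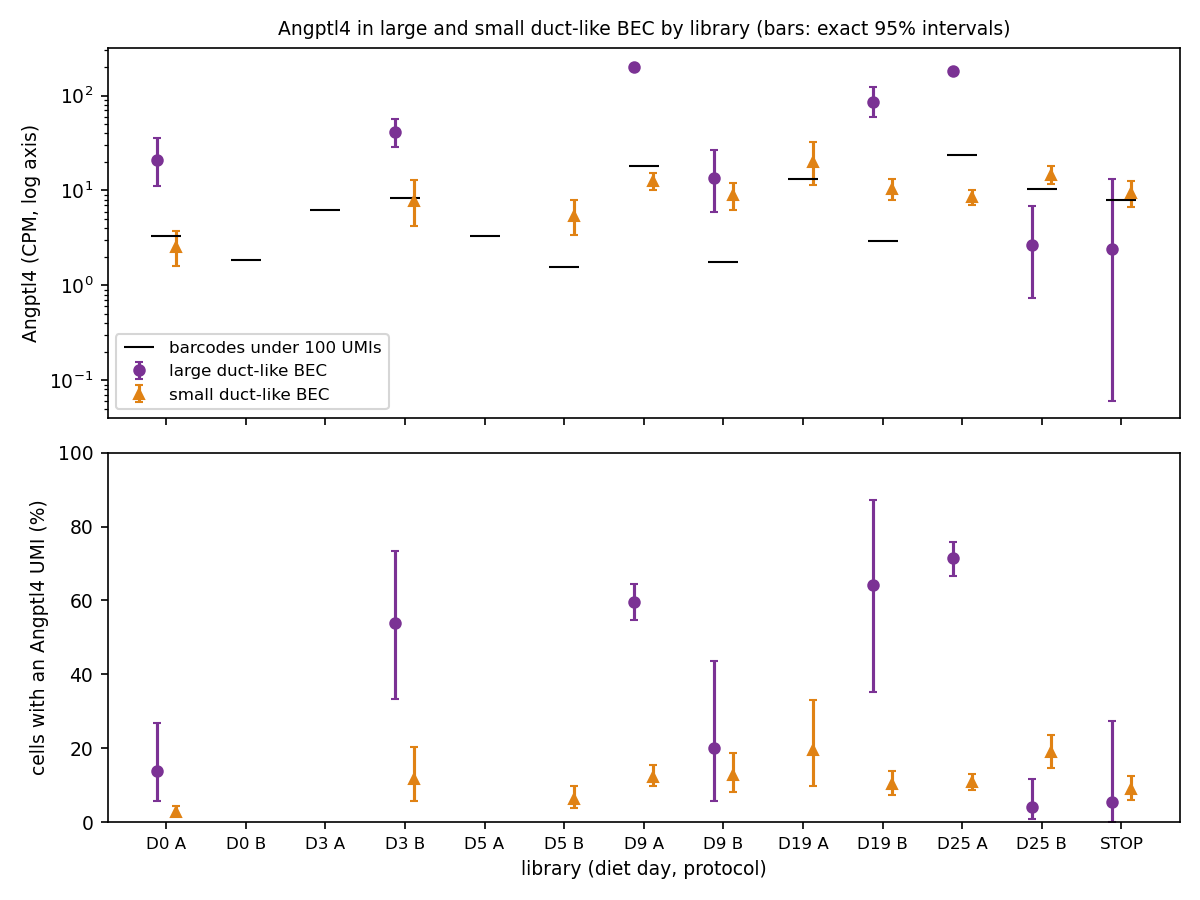
Angptl4 by library (x axis, diet day and protocol) in large and small duct-like BEC, as CPM on a log axis (upper panel) and as the percentage of cells with a UMI (lower panel), with exact 95% intervals and black dashes for barcodes under 100 UMIs. Large duct-like cells of D9 A and D25 A reach 202 and 182 CPM, while small duct-like cells stay between 2.51 and 20.02 CPM.

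Small duct-like BEC held less Angptl4, and every diet library lay above the steady-state library. The level was 2.51 CPM (1.61 to 3.74) in D0 A, 7.73 CPM in D3 B and 5.33 CPM in D5 B. It was 12.5 CPM in D9 A and 8.86 CPM in D9 B, 20.02 CPM in D19 A and 10.4 CPM in D19 B, and 8.46 CPM in D25 A and 14.6 CPM in D25 B. Thus 8 of 8 diet libraries exceeded D0 A, and STOP, at 9.33 CPM (6.72 to 12.6), lay within the diet range. The share of cells with a UMI was 2.92% in D0 A and 6.40% to 19.6% on diet, against 0 to 3.801 CPM and 0% to 3.12% in T-like cells and 0 UMIs in the B-like cells of the 7 libraries with at least 20 of them, which allows 1.29 to 31.7 CPM.

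Small duct-like levels were close to free RNA in some libraries. Barcodes under 100 UMIs held 3.30 CPM of Angptl4 in D0 A, 8.43 CPM in D3 B, 18.2 CPM in D9 A and 23.5 CPM in D25 A, which is at or above the small duct-like level there. In 6 of 10 libraries, among them D5 B at 1.56 CPM, D9 B at 1.77 CPM and D19 B at 2.93 CPM, the small duct-like level was above that of these barcodes. Large duct-like cells of D9 A and D25 A exceeded it by far. Within small duct-like BEC, the cluster led by Cxcl5, Cldn4, Mmp7 and Krt17 held more Angptl4 than the cluster led by Ces1d, Ddit4l, Sox9 and Pkhd1 in 7 of 7 libraries with both, for example 17.4 against 8.503 CPM in D9 A and 8.40 against 0.935 CPM in D5 B. The first cluster held 8 and the second 706 of the 719 small duct-like cells of D0 A, whereas the first held 577 of 797 in D25 A and 264 of 371 in D19 B, so the class sat in different clusters at steady state and on diet. Within the second cluster, D0 A stood at 2.56 CPM, D5 B below it at 0.935 CPM, and the other 6 diet libraries with at least 20 cells above it, from 4.90 to 10.9 CPM.

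Summed over all BEC-like cells, Angptl4 was highest in the libraries with the most large duct-like cells. The BEC-like level was 3.64 CPM in D0 A, 18.6 CPM in D3 B, 5.31 CPM in D5 B, 103 CPM in D9 A, 9.42 CPM in D9 B, 25.3 CPM in D19 A, 14.7 CPM in D19 B, 71.6 CPM in D25 A, 12.2 CPM in D25 B and 8.74 CPM in STOP. In D9 A, large duct-like cells were 43.7% of BEC-like cells and held 93.6% of their Angptl4 UMIs, and in D25 A they were 32.7% and held 92.5%. In D25 B they were 18.5% of cells and held 4.30% of the UMIs, the lowest ratio among diet libraries with at least 20 such cells.

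Fitted across all genes with isolation protocol as a term, the log2 fold change of Angptl4 on diet was 4.43 ± 0.86 (SE) in BEC-like cells. Since D0 A is the only BEC control and belongs to protocol A, this value is carried by D9 A, D19 A and D25 A against D0 A, and the 5 protocol B libraries enter only the protocol term and the spread. Without the protocol term, over all 8 diet libraries, it was 3.36 ± 1.70. With the term it was 2.41 ± 0.62 in small duct-like cells alone, whose D0 A cells lie almost wholly in the cluster with less Angptl4, 3.42 ± 1.001 in large duct-like cells alone, which rests on D9 A and D25 A against D0 A, 2.86 ± 0.76 without D9 A and D25 A, which rests on D19 A (53 cells) against D0 A, and 3.98 to 4.83 when 1 diet library was left out. All of these fits share D0 A as the only control, which is assumed to vary like the diet libraries, and the genes were chosen with this difference known, so their common direction is not independent support. Progression (D9, D19, D25) and onset (D3, D5) differed by 0.05 ± 0.59 with the protocol term, which compares protocol B libraries since both onset libraries are of that protocol, and by 1.89 ± 1.07 without it. Within a library, small duct-like cells were lower than large duct-like ones by −2.91 ± 0.70 on the log2 scale, in 5 of 6 libraries, with the opposite order in D25 B and −3.66 ± 0.45 without it.

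Other cells of the duct samples were read for markers beside these values. In small duct-like cells the hepatocyte list summed to 6889 CPM in D0 A and to 784 to 5312 CPM on diet, and the macrophage list to 161 CPM against 122 to 691 CPM. In large duct-like cells the macrophage list summed to 72.0 CPM in D0 A and to 262 to 1345 CPM in diet libraries. The part of these cell types in the Angptl4 difference was not tested.

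Outside the ducts, stromal and lymphatic cells held Angptl4 at steady state as well as on diet. Fibroblast-like cells stood at 32.1 CPM in D0 A and at 0 CPM (27 cells) to 54.7 CPM in 7 diet libraries, with 42.1 CPM in STOP, so the diet libraries lay on both sides of D0 A (log2 fold change −0.22 ± 0.85, carried by 4 protocol A diet libraries). Of the fibroblast-like clusters, the one led by Clec3b and Mfap5 held 43.0 CPM in D0 A, whereas the one led by Colec11, Reln and Lhx2, genes of hepatic stellate cells, held 10.2 CPM. The cluster led by Clec3b and Mfap5 held 244 of 366 fibroblast-like cells in D0 A, 1 of 27 in D5 A and 26 of 365 in D25 B. The class thus sat in different clusters by library. Lymphatic endothelial-like cells held 21.8 CPM in D0 A, 20.4 to 55.1 CPM on diet and 38.1 CPM in STOP, above free RNA in 6 of 6 libraries.

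Macrophage-like cells held low Angptl4 that was higher on diet. The level was 4.03 CPM in D0 A and 1.08 CPM in D0 B, and 10 of 10 diet libraries lay above both, from 5.23 to 17.1 CPM with a median of 9.29 CPM (log2 fold change 1.95 ± 0.62). It exceeded barcodes under 100 UMIs in 10 of 13 libraries. The clusters that made up the class differed by library. In D0 B, 116 of 199 cells lay in a cluster that held at most 2 cells of any diet library, and the part of this in the difference was not tested. The cluster led by Clec4f and Marco, genes of Kupffer cells, held 5.43 CPM in D0 A, 8.26 CPM (1 UMI) in D0 B and 6.58 to 19.1 CPM on diet, and the cluster led by Gpnmb and Trem2, genes of lipid-handling macrophages, held 1.67 CPM in D0 A, 0 CPM in D0 B and 3.51 to 17.9 CPM on diet. In macrophage-like cells the BEC markers other than Spp1, which macrophages also make, summed to 15.1 and 40.0 CPM in the D0 libraries and to 8.38 to 180 CPM on diet, and their part in the Angptl4 difference was not tested.

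LSEC-like cells held little Angptl4, and hepatocyte-like cells on diet stood near small duct-like ones. In LSEC-like cells Angptl4 was 0.738 CPM in D0 A and 0 CPM (0 UMIs in 201 cells, which allows up to 5.70 CPM) in D0 B, and ranged from 0 to 14.4 CPM with a median of 1.96 CPM over 10 diet libraries, above free RNA in only 2 of 13 libraries (log2 fold change 2.31 ± 1.25). Hepatocyte-like cells gave 0 UMIs in 37 cells of D0 A, which allows up to 24.6 CPM, and 9.59 to 27.1 CPM from 2 to 16 UMIs in 4 diet libraries. No change could be told at this depth.

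The order of the cell types differed between steady state and diet and between the protocols, so it is given for each (libraries with at least 20 cells). In D0 A, fibroblast-like cells (32.1 CPM), lymphatic endothelial-like cells (21.8 CPM) and large duct-like BEC (20.7 CPM) stood above macrophage-like cells (4.03 CPM), T-like cells (3.63 CPM), small duct-like BEC (2.51 CPM) and LSEC-like cells (0.738 CPM). In diet libraries of protocol A the mean was 192 ± 14.4 CPM (SD, n = 2) in large duct-like BEC, 37.6 ± 15.2 (n = 3) in lymphatic endothelial-like cells, 20.9 ± 19.8 (n = 4) in fibroblast-like cells, 13.7 ± 5.86 (n = 3) in small duct-like BEC, 11.3 ± 3.38 (n = 5) in macrophage-like cells, 2.87 ± 1.44 (n = 5) in LSEC-like cells and 0.760 ± 1.70 (n = 5) in T-like cells, with 27.1 CPM in the 1 library with hepatocyte-like cells. Large duct-like BEC thus led by more than either SD, while lymphatic endothelial-like and fibroblast-like cells, and fibroblast-like and small duct-like cells, differed by less than the larger SD, and small duct-like and macrophage-like cells by less than either.

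In diet libraries of protocol B the mean of large duct-like BEC was not the highest, but the leading means cover different libraries. Fibroblast-like cells are from D5 B, D19 B and D25 B, and large duct-like cells from D3 B, D9 B and D25 B. D19 B held 14 large duct-like cells, too few for the mean. Their level lay above that of its fibroblast-like cells, with overlapping intervals. The mean was 30.9 ± 21.3 CPM (SD, n = 3) in fibroblast-like cells, 19.1 ± 19.8 (n = 3) in large duct-like BEC, 10.3 ± 0.978 (n = 3) in hepatocyte-like cells, 9.38 ± 3.44 (n = 5) in small duct-like BEC, 8.77 ± 4.95 (n = 5) in macrophage-like cells, 3.64 ± 6.04 (n = 5) in LSEC-like cells and 2.51 ± 0.699 (n = 5) in T-like cells, and 20.4 CPM in the 1 library with lymphatic endothelial-like cells. Each neighbouring pair with SDs in this order differed by less than the larger SD.

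**Figure D2:**
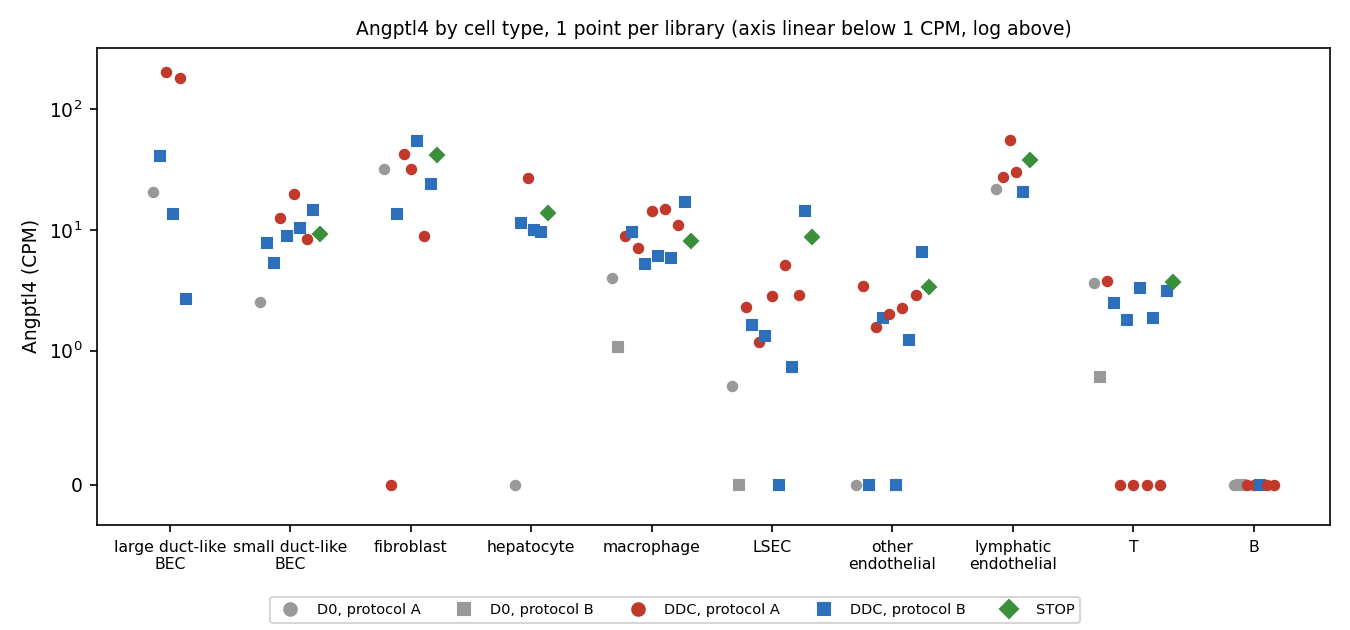
Angptl4 (y axis, CPM) in each cell type (x axis), 1 point per library with at least 20 cells. The points of large duct-like BEC spread from 2.67 to 202 CPM, and those of T-like cells stay at or under 3.801 CPM.

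Withdrawal of the diet was read from STOP against D19 B, 1 library each and without a test. Angptl4 in BEC-like cells was 8.74 CPM (6.33 to 11.8) in STOP and 14.7 CPM (11.9 to 17.9) in D19 B, with separate intervals. In small duct-like cells the values were 9.33 CPM (6.72 to 12.6) and 10.4 CPM (8.03 to 13.3), which overlap. Large duct-like cells were 5.07% of BEC-like cells in STOP (18 cells) and 3.64% in D19 B (14 cells). They held 1 of the 43 BEC-like Angptl4 UMIs in STOP (2.33%) and 32 of 97 in D19 B (33.0%). In LSEC-like cells the order was the opposite, 8.76 CPM (5.87 to 12.6, 29 UMIs) in STOP against 0.875 CPM (0.106 to 3.16, 2 UMIs) in D19 B, while barcodes under 100 UMIs held 7.88 and 2.93 CPM.

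Pdk4 was a transcript of sinusoidal endothelium in these libraries. LSEC-like cells held 6397 UMIs in all, at 101 CPM (94.6 to 107) in D0 A, 57.0 CPM (38.4 to 81.3) in D0 B and 41.8 to 91.3 CPM over 10 diet libraries (median 51.8 CPM), with 47.4 CPM in STOP. All 13 libraries lay above their barcodes under 100 UMIs, and 11.4% to 37.9% of LSEC-like cells had a UMI. D0 A was the highest library and D0 B lay among the diet libraries, so steady state and diet overlapped (log2 fold change −0.50 ± 0.24). Leaving out the cluster with hepatocyte markers gave 108 CPM in D0 A.

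Among LSEC-like cells, Pdk4 was higher in the largest cluster (8898 cells) than in the second (7395 cells), for example 133 against 56.9 CPM in D0 A and 67.4 against 36.1 CPM in D3 A. Other endothelial-like cells held 16.7 to 65.8 CPM (median 29.8 CPM, 12 libraries). Over D0 and diet libraries of both protocols the means were 59.1 ± 18.1 CPM (SD, n = 12) in LSEC-like, 31.1 ± 13.05 (n = 11) in other endothelial-like and 9.73 ± 4.41 (n = 9) in BEC-like cells.

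In BEC-like cells Pdk4 was low and somewhat higher on diet. It stood at 4.62 CPM in D0 A, 14.9 CPM in D3 B, 5.75 CPM in D5 B, 18.2 CPM in D9 A, 10.6 CPM in D9 B, 8.05 CPM in D19 A, 9.52 CPM in D19 B, 9.81 CPM in D25 A, 6.18 CPM in D25 B and 6.91 CPM in STOP. All 8 diet libraries exceeded D0 A (log2 fold change 1.63 ± 0.60), but only 5 of 10 libraries exceeded free RNA, which held 31.0 CPM in D0 A and 24.0 CPM in D9 A. Large duct-like cells gave 3.19 CPM (2 UMIs) in D0 A, 39.9 CPM in D3 B, 23.2 CPM in D9 A, 0 CPM in D9 B, 21.6 CPM in D19 B, 14.5 CPM in D25 A and 4.00 CPM in D25 B. As for Angptl4, D9 A exceeded D9 B and D25 A exceeded D25 B, where D9 B had 0 UMIs, which allows up to 5.11 CPM, and D25 B had 6.

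Macrophage-like cells held 0 to 15.2 CPM of Pdk4. The level was 8.35 CPM in D0 A and 0 CPM in D0 B, and diet libraries of protocol A (5.45 to 15.2 CPM) lay higher than most of protocol B (1.10 to 6.69 CPM). Free RNA of Pdk4 differed the same way, from 9.35 to 38.3 CPM in protocol A and from 2.30 to 5.51 CPM in protocol B of the atlas, and only 3 of 13 macrophage-like values exceeded it. The fitted change was 0.88 ± 0.67 in macrophage-like and 0.10 ± 0.54 in fibroblast-like cells, both near their errors.

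Ppard was found in every named type, and among BEC-like, LSEC-like, macrophage-like, fibroblast-like and hepatocyte-like cells its mean was highest in large duct-like BEC. Single libraries of cDC2-like, monocyte-like and neutrophil-like cells reached 82.6, 67.9 and 61.2 CPM. Large duct-like cells held 81.4 CPM in D0 A, 50.2 CPM in D3 B, 51.4 CPM in D9 A, 45.9 CPM in D9 B, 40.6 CPM in D19 B, 50.3 CPM in D25 A, 45.3 CPM in D25 B and 74.3 CPM in STOP. Here the protocols gave like values, with differences of log2(CPM + 1) between A and B of 0.16 on D9 and 0.15 on D25. Small duct-like cells held 53.4 CPM in D0 A, 29.8 CPM in D3 B, 25.3 CPM in D5 B, 34.9 and 28.4 CPM in D9 A and B, 17.5 and 28.0 CPM in D19 A and B, 25.8 and 23.2 CPM in D25 A and B, and 32.9 CPM in STOP. The steady-state library was the highest in both kinds of duct cell.

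Over all BEC-like cells, Ppard was 55.2 CPM in D0 A and 17.2 to 42.7 CPM in the diet libraries, so 8 of 8 lay below, the opposite direction to Angptl4 (log2 fold change −0.54 ± 0.37, and −0.83 ± 0.30 in small duct-like cells). Small duct-like cells were lower than large duct-like cells by −0.93 ± 0.11, in 6 of 6 libraries. Over D0 and diet libraries of both protocols the means were 54.1 ± 13.6 CPM (SD, n = 6) in large duct-like BEC, 29.6 ± 10.1 (n = 9) in small duct-like BEC, 21.7 ± 5.98 (n = 12) in LSEC-like and 20.9 ± 4.05 (n = 12) in macrophage-like cells, and small duct-like, LSEC-like and macrophage-like cells overlap within their SDs. LSEC-like cells ranged from 15.8 to 38.4 CPM (log2 fold change −0.17 ± 0.27) and macrophage-like cells from 12.9 to 26.6 CPM (0.18 ± 0.22). In hepatocyte-like cells 7 UMIs gave 57.4 CPM in D0 A and 1 to 8 UMIs gave 3.38 to 15.0 CPM on diet.

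**Figure D3:**
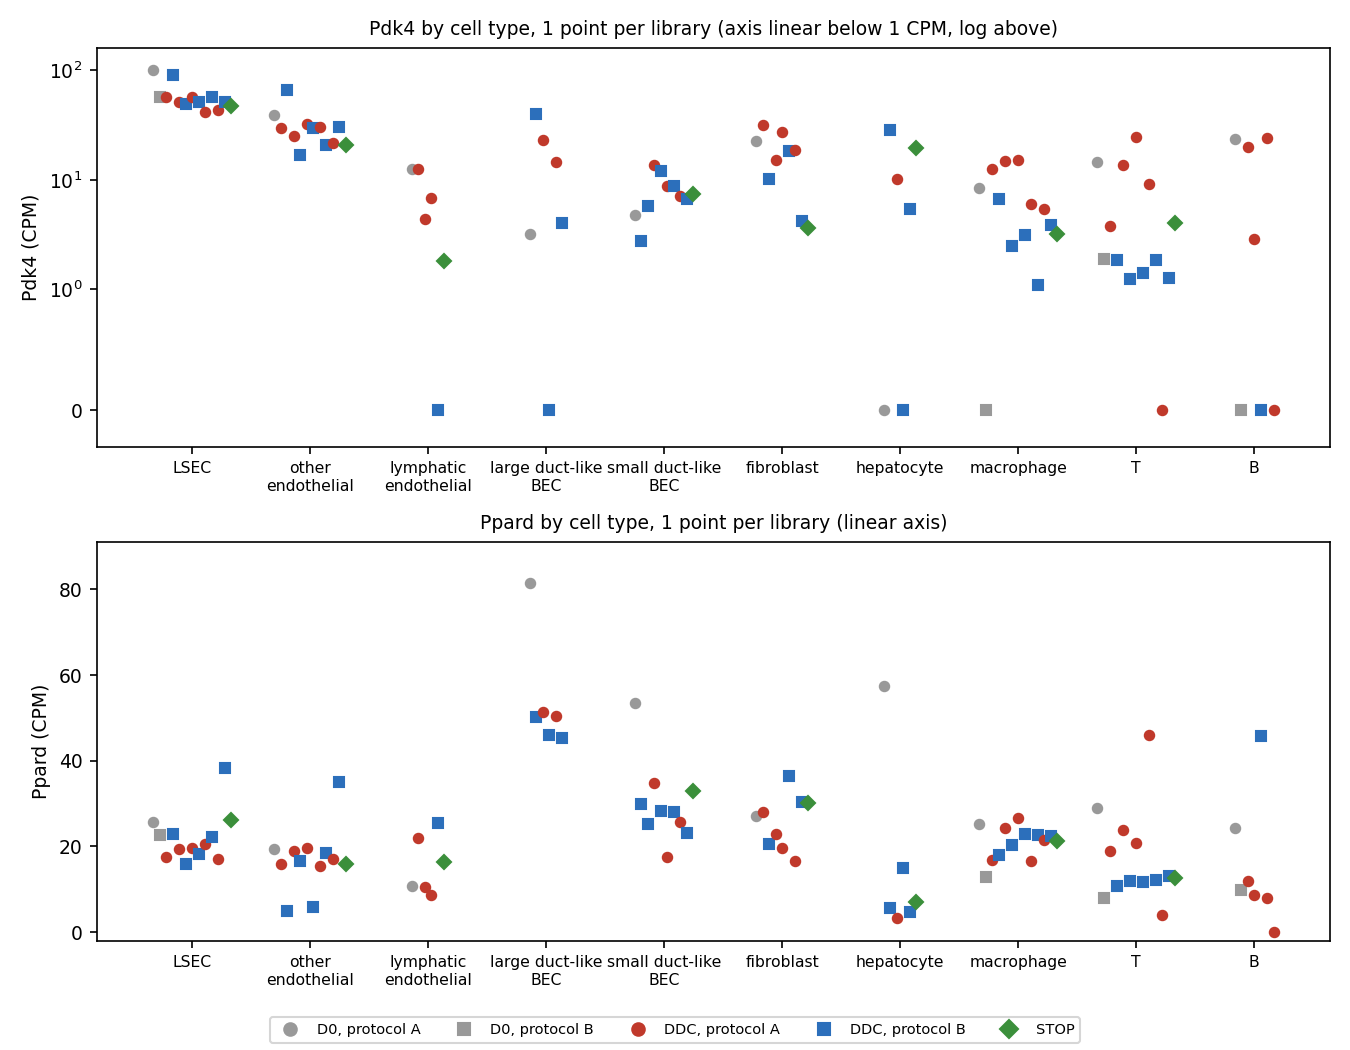
Pdk4 and Ppard (y axes, CPM) by cell type (x axis), 1 point per library with at least 20 cells. Pdk4 lies between 41.8 and 101 CPM in LSEC-like cells, and Ppard between 45.3 and 81.4 CPM in large duct-like BEC.

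Angptl6 marked a part of the fibroblast-like cells. The level there was 101 CPM in D0 A, 112 CPM in D5 A, 88.8 CPM in D5 B, 44.0 CPM in D9 A, 66.2 CPM in D19 A, 6.08 CPM (1 UMI) in D19 B, 73.3 CPM in D25 A, 16.6 CPM in D25 B and 51.3 CPM in STOP. Nearly all of it came from the cluster led by Colec11, Reln and Lhx2, which held 318 CPM (282 to 358) in D0 A, with a UMI in 73.9% of 119 cells. On diet this cluster held 82.0 CPM (D25 B) to 195 CPM (D25 A) in 6 libraries, all below D0 A with separate intervals, and 145 CPM (130 to 160) in STOP. The clusters led by Col1a1 and Acta2 and by Clec3b and Mfap5 held 0 to 1.83 CPM.

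Over all fibroblast-like cells the fitted change of Angptl6 was −0.41 ± 0.69, which is within its error. The cluster led by Colec11, Reln and Lhx2 held 119 of 366 fibroblast-like cells in D0 A, 25 of 27 in D5 A and 69 of 365 in D25 B. It held 3 of 20 in D19 B and 197 of 521 in STOP, so values over all fibroblast-like cells also vary with this share. STOP and D19 B differed with separate intervals, 51.3 CPM (46.3 to 56.7) against 6.08 CPM (0.154 to 33.9), but D19 B had 20 fibroblast-like cells. In every other type the median was at most 2.56 CPM, against 0 to 5.89 CPM in barcodes under 100 UMIs. Hepatocyte-like cells, the cell type usually named as the source of circulating ANGPTL6, held 0 to 5.15 CPM (18 UMIs) and lay above free RNA in 0 of 6 libraries. The hepatocyte-like clusters carried 11 and 9 of the 12 hepatocyte markers.

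Angptl2 was close to absent from these libraries. Fibroblast-like cells held 38 UMIs: 0.722 CPM in D0 A, 0 to 6.66 CPM (at most 6 UMIs) over 7 diet libraries and 2.56 CPM (19 UMIs) in STOP. BEC-like cells held 0 UMIs in 10 of 10 libraries, and LSEC-like, macrophage-like, mesothelial-like, lymphatic endothelial-like and T-like cells held 1 or 2 UMIs each. At this depth a difference with diet was not detectable for Angptl2 in any type, and it passed the filter on low counts in no comparison.

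**Figure D4:**
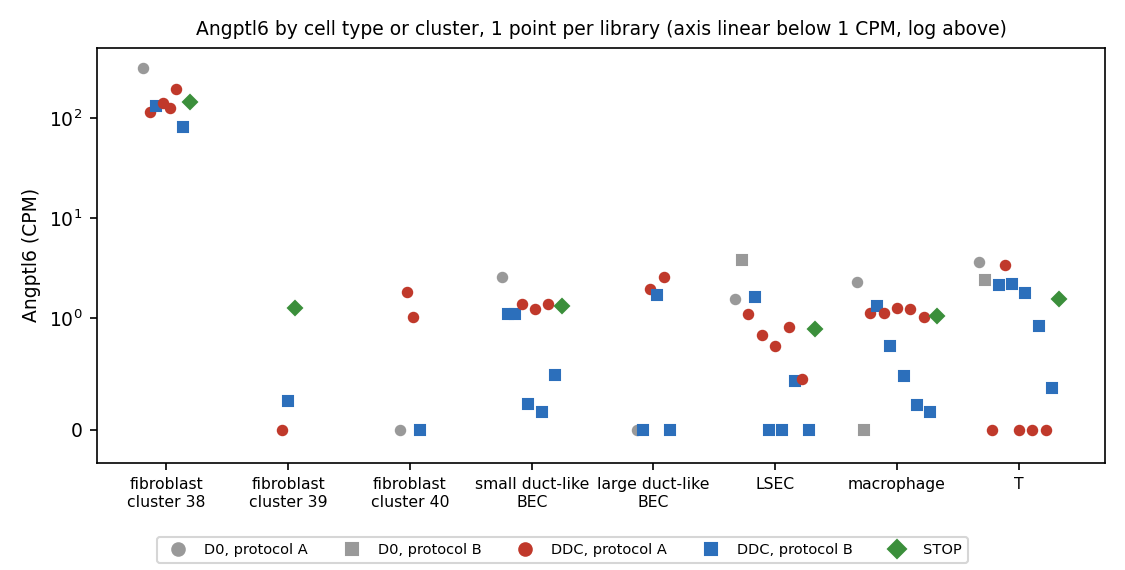
Angptl6 (y axis, CPM) by cell type and fibroblast-like cluster (x axis), 1 point per library. The cluster led by Colec11, Reln and Lhx2 lies between 82.0 and 318 CPM, and other types lie near 0.

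The genes whose levels ran most like each member over 143 sums (18 cell types by library, at least 50 cells each) were ranked by Pearson's r of log2(CPM + 1) among 8782 genes for Angptl4, Angptl2 and Angptl6 and among 8781 for Pdk4 and Ppard. For Angptl4 they were Fblim1 (r = 0.73), Lamb1 (0.73) and Lmna (0.71), which encode an adhesion adaptor, a laminin chain and the A-type lamins. For Pdk4 they were Mb21d2 (0.90), Cd59a (0.90) and Fam124a (0.90). For Angptl6 they were Abca8a (0.82), Mmp3 (0.82) and Mfap4 (0.80), and for Angptl2 Mmp3 (0.82), Mfap4 (0.82) and Gdf10 (0.78), genes of fibroblasts. For Ppard they were Hdac5 (0.69), Rhbdf2 (0.65) and Csnk1e (0.64). Sums of a library share its depth and free RNA, and sums of a cell type share the type and pool its clusters. Abca8a and Mmp3 are among the leading genes of the cluster led by Clec3b and Mfap5, which held little Angptl6. Their r with Angptl6 thus does not place them in the same cells. Among the members, Angptl2 and Angptl6 had r = 0.70, whereas Angptl4 had r = 0.36 with Angptl6, 0.31 with Pdk4 and 0.14 with Ppard. Angptl2 had a mean of 0.114 CPM over the sums, so its r values rest on few UMIs and cannot show that it runs with a gene.

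The other genes of these pathways were then tested in the same fits, from lists of PPAR target genes, PPAR receptors and cofactors, angiopoietins, lipases and lipid uptake, the pyruvate dehydrogenase complex, hypoxia, glucocorticoid-induced genes and dissociation-related genes. In BEC-like cells on diet, edgeR's quasi-likelihood test with Benjamini-Hochberg adjustment called 1.01% of 14882 genes higher and 3.14% lower. Of 34 other PPAR targets tested, 0 were called, with a median log2 fold change of 0.50 against −0.01 over all genes, and 0 of 23 hypoxia-inducible genes were called. All BEC-like calls set the protocol A diet libraries D9 A, D19 A and D25 A against D0 A, and the diet libraries alone supply the spread, with D0 A assumed to vary like them. Large duct-like cells were 6.50% of BEC-like cells in D0 A, 43.7% in D9 A, 3.77% in D19 A and 32.7% in D25 A. A BEC-like difference can thus include this shift, and values by duct type are given below. Pparg, a PPAR that drives fat storage genes, rose (log2 fold change 2.19 ± 0.44, adjusted p = 0.0285), from 5.21 CPM in D0 A to 11.3 to 23.3 CPM on diet. Its coactivator gene Ppargc1a fell (−2.87 ± 0.38, adjusted p = 0.0114), from 81.1 CPM to 8.94 to 22.3 CPM. These 2 were the calls among 12 receptors and cofactors.

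The remaining lists held calls in both directions. Angptl1 (−5.87 ± 1.24, adjusted p = 0.0322, 9.93 CPM in D0 A and 0 to 3.35 CPM on diet) and Angpt1, a ligand of the endothelial receptor Tie2 (−3.00 ± 0.61, adjusted p = 0.0285, 130 CPM in D0 A and 6.90 to 68.1 CPM on diet), were lower, 2 of 6 angiopoietin genes. Vldlr, a lipoprotein receptor, was lower (−1.42 ± 0.34, adjusted p = 0.0424), 1 of 23 genes of lipases and lipid uptake. Pdp2, a phosphatase that opposes the PDK kinases, was lower (−2.14 ± 0.35, adjusted p = 0.0151, 52.4 CPM in D0 A and 8.82 to 17.3 CPM on diet), 1 of 12 genes of the pyruvate dehydrogenase list. Of 16 glucocorticoid-induced genes, the metallothioneins Mt1 (3.37 ± 0.60, adjusted p = 0.0191) and Mt2 (3.59 ± 0.56, adjusted p = 0.0148), which bind metals, rose and Klf15 and Tsc22d3 fell. Of 20 dissociation-related genes Egr1, Jun and Fosb fell, and the list's summed level was 36824 CPM in D0 A and 15280 to 27057 CPM on diet in small duct-like cells. Without the protocol term 9 of these 13 genes were called, and Angptl1 (−3.84, adjusted p = 0.0643), Jun (−1.30, 0.0682), Klf15 (−1.73, 0.0613) and Mt1 (2.84, 0.0551) were not. Without D9 A and D25 A, where D19 A alone stands against D0 A and 3 genes in all were called, 0 of the 13 were called and 13 kept their direction, for example Pparg at 1.59 ± 0.57, Ppargc1a at −3.07 ± 0.70 and Mt2 at 3.08 ± 0.47. Within small duct-like cells, where 0.434% of 14755 genes were called higher and 0.732% lower, Ppargc1a (adjusted p = 0.0294), Pdp2 (0.0371), Mt1 (0.0380), Mt2 (0.0375), Tsc22d3 (0.0442) and Egr1 (0.0462) were called, and Pparg (2.06 ± 0.53, adjusted p = 0.0638; 3.14 CPM in D0 A and 5.52 to 17.1 CPM on diet) was not. In large duct-like cells Ppargc1a stood at 6.38 CPM in D0 A and 4.503 to 10.3 CPM on diet, and Pparg at 36.7 CPM and 34.9 to 83.4 CPM, so D0 A lay inside the diet range for both.

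Markers of BEC and of other cells moved with these BEC-like calls. Of the 12 BEC markers tested Krt19 was called higher (1.57 ± 0.35), and Sox9 (−1.54 ± 0.28), Pkhd1 (−1.73 ± 0.33) and Bicc1 (−1.32 ± 0.22) were called lower. Prox1 and Reln of the lymphatic endothelial list, Adgrg6 of the other endothelial list, Cadm1 of the type 1 dendritic cell list and the T cell marker Cd4 were called lower too, of which Prox1 (497 CPM in D0 A and 56.1 to 150 CPM on diet) and Cadm1 (562 and 124 to 304 CPM) were abundant in BEC-like cells. Of 8 monocyte markers Ace and Chil3 were called higher (list median log2 fold change 2.17), with list sums of 78.4 CPM in D0 A and 156 to 343 CPM on diet. Chil3 had 0 UMIs in D0 A, which allows up to 0.295 CPM, and stood at 0.802 to 35.6 CPM on diet. Of 12 macrophage markers Trem2 was called higher (list median 1.48), at 0 UMIs in D0 A and 5.97 to 45.8 CPM on diet, with list sums of 155 CPM against 124 to 767 CPM. Of 3 erythroid markers tested the haemoglobin gene Hba-a1 was called higher (list median 4.13), at 2.16 CPM in D0 A and 0.802 to 54.05 CPM on diet. The erythroid markers other than Car2, which encodes a carbonic anhydrase that BEC also express, summed to 186 CPM in D9 A and 98.9 CPM in D25 A against 1.20 to 17.2 CPM in the other diet libraries and 6.98 CPM in D0 A. The 6 large duct markers had a median of 2.62 with 0 called, and the 11 hepatocyte markers tested a median of −1.87 with 0 called. The part of these cells in the BEC-like calls was not tested.

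Macrophage-like cells showed the most calls around Angptl4. On diet 2.05% of 12537 genes were called higher and 2.61% lower. The class sat in different clusters in each group: 116 of 199 cells of D0 B lay in a cluster that held at most 2 cells of any diet library, 349 of 567 of D0 A in the cluster led by Clec4f and Marco, and 1512 of 3714 of D9 A and 340 of 434 of D25 B in the cluster led by Gpnmb and Trem2. Of 23 genes of lipases and lipid uptake, 6 rose and 0 fell: Itgb3, an integrin chain (3.18 ± 0.54, adjusted p = 0.00760), Gpihbp1, which anchors lipoprotein lipase in capillaries (1.74 ± 0.32, adjusted p = 0.0109), Mgll, Lpl, which encodes the lipase that ANGPTL4 inhibits, Itga5 and Lipa, the lysosomal acid lipase. Lpl stood at 1260 and 286 CPM in D0 A and D0 B and at 1120 to 1970 CPM on diet, so D0 A lay inside the diet range. Of 31 PPAR targets, the fatty acid transporter Cd36 (1.84 ± 0.33, adjusted p = 0.00994, 248 and 88.4 CPM at D0 and 288 to 820 CPM on diet), Fabp4 (2.33 ± 0.52, adjusted p = 0.0257) and Hadha rose, and Fabp1 (−2.79 ± 0.69, adjusted p = 0.0355) and Slc25a20 fell. Endothelial markers moved with these calls. Of 10 LSEC markers Fcgr2b and Clec4g were called higher, with a median log2 fold change of 0.92 over the list and sums of 2639 and 1185 CPM at D0 and 1090 to 5662 CPM on diet, and 0 of 8 other endothelial markers were called, with a median of 1.33. LSEC-like cells on diet held 773 to 1595 CPM of Cd36, 636 to 2654 CPM of Fabp4, 1141 to 2861 CPM of Gpihbp1, 300.1 to 433 CPM of Mgll and 22.8 to 108 CPM of Itgb3, each above the macrophage-like median. Of the 12 macrophage markers themselves Gpnmb (5.13 ± 0.86) and Trem2 (2.37 ± 0.48) were called higher and Timd4, a marker of resident Kupffer cells, lower (−1.25 ± 0.33). Spp1, from the BEC list, was called higher (5.06 ± 0.96, adjusted p = 0.0117), at 58.2 and 21.6 CPM at D0 and 406 to 6580 CPM on diet. Among markers of further cell types, Chil3, a monocyte marker, was called higher, and the B cell markers Cd79a and Cd79b, the dendritic cell markers Clec9a, Clec10a and Mgl2, the T cell marker Cd4 and the hepatocyte markers Cyp2e1 and Serpina1a were called lower. The part of endothelial and other RNA in these macrophage-like values was not tested.

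In the other macrophage lists, Nrip1 (1 of 10 receptors and cofactors) and P4ha1 (1 of 22 hypoxia genes) fell, and 0 of 3 angiopoietin genes and 0 of 12 pyruvate dehydrogenase genes were called. Among 14 glucocorticoid-induced genes Mt2 rose and Gadd45g, Nfkbia, Tsc22d3 and Dusp1 fell, but without D0 B Gadd45g went from −2.08 to −0.17 (adjusted p = 0.832) and Nfkbia from −1.71 to −0.21 (adjusted p = 0.829). Of 20 dissociation-related genes 8 fell, led by Hspa1a (−2.95 ± 0.78, adjusted p = 0.0454) and Dnajb1 (−2.72 ± 0.29, adjusted p = 7.43e-04). With D0 B left out, Hspa1a stood at −3.06 and Dnajb1 at −2.34. The others were Ier2 at −0.05, Atf3 at −0.10, Fos at −0.56, Junb at −0.75, Jund at −0.92 and Hspb1 at −1.01. Without D0 B, 223 genes were called in all, against 584 with it. Of the 26 called genes of these lists, 11 were called without D0 A and 2, Dnajb1 and Itgb3, without D0 B, and 26 kept their direction in both. The hepatocyte list summed to 700 and 112 CPM in the D0 libraries and to 96.2 to 372 CPM on diet, beside the lower Fabp1.

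In LSEC-like cells, with 0.0394% of 12679 genes called higher and 0.11% lower, the call among all lists was Fabp1, a fatty acid binding protein abundant in hepatocytes (−3.32 ± 0.41, adjusted p = 0.0028), 1 of 29 PPAR targets. It stood at 99.3 and 55.1 CPM in the D0 libraries, at 1.31 to 13.6 CPM on diet and at 302 CPM in STOP. The hepatocyte list summed to 1206 and 146 CPM at D0 and to 198 to 420 CPM on diet, and its marker Cyp2e1 was called lower too. Without the cluster with hepatocyte markers, which held 2057 of the D0 A cells, Fabp1 was 69.7 and 35.0 CPM at D0 and 298 CPM in STOP (log2 fold change −2.73 ± 0.45, adjusted p = 0.0436), beside list sums of 390 and 111 CPM at D0. Without D0 A altogether the fold was about as large (−3.31) with an adjusted p of 0.0733. The part of hepatocyte RNA in this difference was not tested. In fibroblast-like cells edgeR called 0% of 11784 genes in either direction, with 666 genes at an unadjusted p under 0.05 and 10 called by DESeq2. In hepatocyte-like cells 0.0937% of 5338 genes were called higher and 0.244% lower, but the protocol term leaves D19 A alone against D0 A, so no call is read there. Mt2 stood at 8.20 CPM in D0 A (37 cells) and 426 to 1335 CPM over 4 diet libraries, Hspa1a at 459 CPM and 0 to 5.39 CPM, and Hspa1b at 763 CPM and 0 to 5.73 CPM. Progression against onset in BEC-like cells gave 0% of 13455 genes called, with 722 at an unadjusted p under 0.05 and 14 called by DESeq2.

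BEC with and without an Angptl4 UMI were compared within libraries. Among large duct-like cells this was possible in D9 A (247 positive and 167 negative cells) and D25 A (277 and 111), a comparison added after the values were seen and with 1 residual degree of freedom. Its p-values therefore lean mostly on the spread that edgeR shares over genes, and both groups are cells of the same libraries. Positive cells were deeper, with a median of 18479 against 12904 UMIs in D9 A and 20767 against 13115 in D25 A. Pdk4 was higher in positive cells, 28.7 against 11.7 CPM in D9 A and 16.6 against 7.05 CPM in D25 A (log2 difference 1.23 ± 0.25). The intervals were separate in both, but they cover counting error only and do not test the difference. Values after thinning are not given for Pdk4 and Ppard. Barcodes under 100 UMIs held 24.0 CPM of Pdk4 in D9 A and 21.7 CPM in D25 A, so only the positive cells of D9 A lay above free RNA. Ppard was 55.0 against 43.8 CPM and 54.0 against 37.6 CPM (0.36 ± 0.14), all above free RNA at 25.8 and 24.7 CPM.

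Of 32 other PPAR targets, 8 were higher and 2 lower in Angptl4-positive large duct-like cells, where 0.857% of 11079 genes were called higher and 0.839% lower. The higher ones included Fabp1 (2.26 ± 0.16, adjusted p = 3.32e-08), the thioesterase gene Acot1 (0.75 ± 0.11, adjusted p = 7.35e-04), Creb3l3, Acot2, Eci2, Hadha and Hadhb. The lower ones were Cd36 (−0.70 ± 0.15, adjusted p = 0.0127) and Fabp5 (−0.59 ± 0.12, adjusted p = 0.010). The list's median was 0.32 against −0.01 over all genes. Each cell was also thinned to 1500 UMIs and the cells were split again by the UMIs left, so that cells positive before could count as negative. In that split 12 genes in all were called and 0 of them were PPAR targets, and Fabp1 (−0.26) and Cd36 (0.18) changed sign. The signs before and after thinning thus compare different groups of cells.

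The hypoxia-inducible genes Car9 (0.55 ± 0.10, adjusted p = 0.00245) and Ndrg1 (0.53 ± 0.10, adjusted p = 0.00633) were higher in positive large duct-like cells, 2 of 21, and Ndrg1 stayed so after thinning (0.82 ± 0.20, adjusted p = 0.0252). Car9 was not called after thinning, and its lowest value over the alternatives was 0.06. Lipa, Zfp36 and Junb were lower, and no receptor, angiopoietin, pyruvate dehydrogenase or glucocorticoid-induced gene was called. Lipa, Zfp36 and Junb were each called in 2 of 5 alternatives, over which Lipa ranged from −0.59 to −0.01. Over all genes Hbb-bs, Fabp1, Reg1 (1.55), Rgs5 (1.37) and Muc3 (1.09) led the higher genes, and Tff2 (−2.16), Ltf (−1.92), Olfm4 (−1.77), Gabrp (−1.51) and Tff3 (−1.35), several of them genes of secretory epithelium, led the lower ones. After thinning, Reg1, Ndrg1 and Ctrb1 were called higher, and Tff2, Tff3, Mmp7, Cd74 and Apoe were the 5 lower genes with the largest change. Reg1, Ctrb1 and Muc3 are among the leading genes of the large duct-like cluster, and Tff2 and Mmp7 among those of small duct-like clusters. Of 6 large duct markers Aqp8 and Muc3 were called higher and 1 lower before thinning, with a list median of 0.10. Of 3 erythroid markers tested, 2 were called higher in positive cells, with a list median of 3.11: Hbb-bs (3.15 ± 0.23, adjusted p = 3.32e-08) stood at 6.04 against 2.17 CPM in D9 A and at 181 against 16.4 CPM in D25 A, and Hba-a1 (3.11 ± 0.36, adjusted p = 3.24e-05) at 3.54 against 2.17 CPM and at 73.9 against 5.29 CPM. The list sums, 1060 and 1487 CPM against 838 and 991 CPM, were mostly Car2. Of 12 macrophage markers 2 were called lower, with sums of 643 and 240 CPM in positive and 759 and 337 CPM in negative cells. Their part in these differences was not tested.

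In small duct-like cells, 6 libraries had at least 20 positive and 20 negative cells, and 0.613% of 12733 genes were called higher and 0.33% lower. Pdk4 (0.34 ± 0.25) and Ppard (0.03 ± 0.12) differed by about their errors or less. Fabp5 was the called gene of 33 PPAR targets (0.47 ± 0.10, adjusted p = 0.0352), in the opposite direction to large duct-like cells, a difference that was not tested. Lpl (1.05 ± 0.24, adjusted p = 0.0494), Lipa (0.52 ± 0.11, adjusted p = 0.0411), Mt1 (0.33 ± 0.07, adjusted p = 0.0447) and Mt2 (0.44 ± 0.07, adjusted p = 0.00891) were higher too, and no hypoxia-inducible gene was called. Of 10 alternatives, Mt2 was called in 10, Fabp5 in 6, Lpl and Mt1 in 5 each and Lipa in 4. Over all genes Fgb, Gsta1, Cd5l, Wfdc17 and C1qc led the higher genes, and Syt7, Fmo2, Ddit4l, Gas6 and Stbd1 the lower ones. Of 12 macrophage markers 3 were higher, with sums of 115 to 852 CPM in positive and 80.9 to 687 CPM in negative cells. Fgb was the called gene of 10 hepatocyte markers tested, and 1 of 5 lymphatic endothelial markers was called lower. The 6 large duct markers had a median log2 difference of 1.41, the 3 erythroid markers tested 2.17 and the 5 type 2 dendritic cell markers 1.08, each with 0 called. Positive cells of D0 A had a median of 20896 against 10009 UMIs. The part of these in the differences was not tested.

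**Figure D5:**
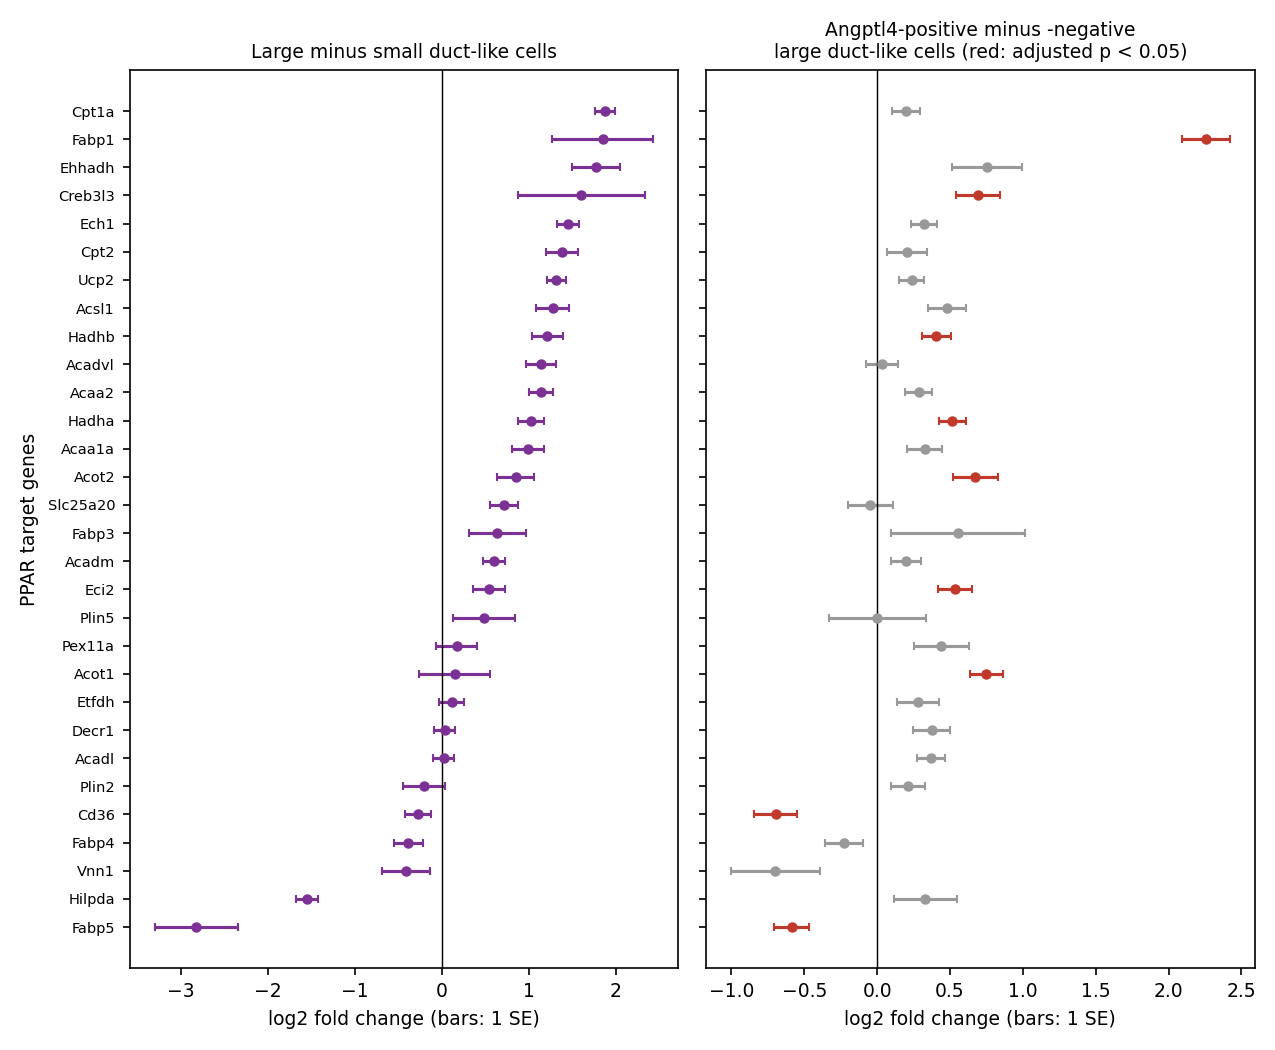
Most of the PPAR target genes tested (y axis) by log2 fold change (x axis, bars 1 SE) of large minus small duct-like BEC over 6 libraries (left) and of Angptl4-positive minus -negative large duct-like BEC over 2 libraries (right, red for adjusted p under 0.05). In the left panel Cpt1a and Cpt2 lie at 1.87 and 1.38 and Fabp5 at −2.83, and in the right panel Fabp1 lies farthest to the right at 2.26.

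Large and small duct-like BEC of the same library also differed in the genes around Angptl4, described here without a test because the clusters were made from the same cells. Of 33 PPAR targets, 10 were higher in large duct-like cells in all 6 libraries and 3 lower, while 12.3% of 13878 genes were higher and 32.0% lower in all 6. The higher ones included enzymes of fatty acid oxidation, such as Cpt1a, whose product starts the transport of fatty acids into mitochondria (147 to 246 against 46.7 to 65.9 CPM, log2 difference 1.87 ± 0.11), Cpt2, Acadvl, Hadha, Hadhb, Ech1 and Acaa2, with the fatty acid activating enzyme gene Acsl1 and the uncoupling protein gene Ucp2. The lower ones were Fabp5 (−2.83 ± 0.48), Cidea (−2.59) and Hilpda (−1.55 ± 0.13), and both Cidea and Hilpda act on lipid droplets.

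Receptors and kinases differed in both directions. Of 12 receptors and cofactors 3 were higher and 2 lower in large duct-like cells in all 6 libraries, and of 12 genes of the pyruvate dehydrogenase list 4 were higher and 2 lower. Ppara (1.99 ± 0.43) and Pparg (2.42 ± 0.22, 34.9 to 83.4 against 3.14 to 13.2 CPM) were higher in large duct-like cells in 6 of 6 libraries, as were the coactivator gene Ppargc1b (3.43 ± 0.32), the Pdk4 relatives Pdk1 (0.93 ± 0.16) and Pdk2 (1.87 ± 0.15), and Pdha1 and Dlat of the complex itself. Lower in 6 of 6 were, among others, Ppargc1a (−1.44 ± 0.29), Pdk3, a further relative of Pdk4 (−0.83 ± 0.22), and the phosphatase gene Pdp1 (−1.28 ± 0.31). Of 23 hypoxia-inducible genes 6 were higher and 6 lower in all libraries, with the carbonic anhydrase gene Car9 far higher (4.66 ± 0.36). Cpt1a and Pparg stood above small duct-like cells also in D25 B, where Angptl4 did not.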

How the data were processed

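The deposited tables hold unnormalized UMI counts of every barcode of a library, which the authors made with kallisto against GRCm38 per the submitters' processing notes (version not given in the sources used here), with no filter on barcodes. Genes are listed by symbol, and coordinates are from a GRCm38 gene annotation. Libraries were grouped by their labels. Cells are barcodes of 1500 UMIs or more, the study's own limit. They were clustered by the Leiden method (igraph 0.11.9, scikit-learn 1.9.0, Python 3.11.15) without the 5 genes and the listed pathway genes. Clusters were named from marker lists. They stayed unnamed where fewer than 3 markers were detected, where markers of another lineage were detected or led, or where tuft cell genes led, a rule added after the clusters were seen. Unnamed clusters of 1483 and 807 cells had biliary genes such as Pkhd1 and Epcam among their leading genes, and BEC-like cells leave them out. No doublet caller was run, so doublets within named clusters remain. The 5 genes, the marker and pathway lists and the tests were chosen with earlier results of these data known.

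UMIs were summed per library and cell type with at least 20 cells and tested with edgeR 4.0.16 (R 4.3.3, limma 3.58.1) by its quasi-likelihood test, with TMM, filterByExpr and Benjamini-Hochberg adjustment at 0.05 over all genes tested. STOP was left out of the fits. Standard errors are the size of the log2 fold change divided by the square root of F. Diet fits had isolation protocol as a term, so that where D0 A is the only control the diet libraries of protocol A carry the contrast. Comparisons within a library had the library as a block. Levels of the 5 genes have exact Poisson and Clopper-Pearson 95% intervals, which cover counting error only, and a count of 0 allows 3 counts. Small against large duct-like cells were tested as planned but are read as a description. The genes named from each list were the called ones with the largest change, at most 3 per direction in BEC and at most 2 elsewhere, with 5 per direction over all genes (mean log2 CPM of at least 5) for Angptl4-positive cells and 3 per member for likeness. Other called genes of the lists are named to complete their counts, chosen after their values were seen. The edgeR test was tried on simulated counts for the BEC-like and LSEC-like diet fits and for small against large duct-like cells. The other comparisons and DESeq2 were not simulated. Alternatives were DESeq2 1.42.0, no filter, no TMM, at least 3000 UMIs per cell, no protocol term, cells thinned to 1500 UMIs, subtraction of the profile of barcodes under 100 UMIs, and leaving out each library. Thinned cells were split into Angptl4-positive and -negative ones by the UMIs left. The alternatives by duct type, without D9 A and D25 A and without an LSEC-like cluster were chosen after seeing the data. Values of some listed genes are not reported here, and counts over the lists include them.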

Additional observations from a re-analysis of the deposited data

Results flagged for a closer look

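Within each stage, the levels of the 5 genes in BEC-like, LSEC-like, macrophage-like, fibroblast-like and hepatocyte-like cells were searched for a library far from the others by Dixon's criterion. Of 36 groups of 4 or more libraries, 5 held such a library, and chance marks about 1 group in 20. All 5 are in the progression stage, and no explanation was tested.

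D25 B stood apart in LSEC-like cells for Angptl4, at 14.4 CPM (18 UMIs) against 5.13 CPM in the nearest of the other 5 libraries, and for Ppard, at 38.4 CPM (48 UMIs) against 22.3 CPM. Barcodes under 100 UMIs of D25 B held 10.3 CPM of Angptl4 and 12.6 CPM of Ppard. D9 A stood apart for Pdk4 in macrophage-like cells, at 15.2 CPM (332 UMIs) against 6.04 CPM, and in BEC-like cells, at 18.2 CPM (271 UMIs) against 10.6 CPM, while barcodes under 100 UMIs of D9 A held 24.0 CPM of Pdk4. D19 A stood apart for Angptl4 in hepatocyte-like cells, at 27.1 CPM (8 UMIs) against 11.5 CPM in 4 libraries.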

How the results depend on the processing

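In BEC-like cells, 618 genes were called on diet, against 1274 with DESeq2, 1242 without a filter on low counts 992 without TMM and 753 without the protocol term, 172 in small duct-like cells, 0 in large duct-like cells (1167 at an unadjusted p under 0.05), 3 without D9 A and D25 A, and 8 (without D25 A) to 1199 (without D3 B) when 1 library was left out, with 72 without D9 A. The share of called genes that were higher was 24.4%, and 51.3% with DESeq2, 36.1% without the filter, and 15.0% without TMM, where the median of all genes shifted to −0.18 on the log2 scale. In LSEC-like cells, 19 calls became 260 with DESeq2, 202 without the filter, 29 without TMM, 12 at 3000 UMIs, 33 without the protocol term, 5 without the cluster with hepatocyte markers, and 5 to 84 without 1 library, the highest without D0 B. In macrophage-like cells, 584 calls became 1073 with DESeq2, 175 without the protocol term and 223 (without D0 B) to 718 without 1 library, and the higher share moved from 44.0% to 28.3% without TMM. In fibroblast-like cells, 0 calls became 10 with DESeq2, 4 without the filter, 1 without the protocol term and 0 to 2 without 1 library. In hepatocyte-like cells, where D19 A alone carries the contrast, 18 became 63 without the filter and 15 to 98 without 1 library. Progression against onset had 0, and 14 with DESeq2, 270 without the filter and 0 to 16 without 1 library. Angptl4-positive against -negative cells gave 120 calls in small duct-like cells, 528 without the filter and 36 to 163 without 1 library, and 188 in large duct-like cells, 23 with DESeq2, 352 without the filter, 94 without TMM and 12 after thinning, where Cd36 (0.18) and Fabp1 (−0.26) changed sign. Thinned cells were split again by the UMIs left. The cause was not tested in any of these comparisons.

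Of the values of single named genes under alternatives, 377 kept their direction and side of the threshold, 187 kept the direction but not the call, and 2 reversed. At 3000 UMIs all 335 levels of the 5 genes stayed within their counting intervals. Free RNA subtraction, scaled to leave no Alb, gave 215 of 305 levels, of which 118 stayed within the interval, 45 fell below it and 52 rose above it. In large duct-like cells 24 of 30 stayed, and Angptl4 rose to 225 CPM in D9 A and 242 CPM in D25 A while Pdk4 fell to 0 CPM in D0 A and 11.7 CPM in D25 A. In small duct-like and in all BEC-like cells D19 A and STOP alone gave a value, since Alb was at or above its free RNA level elsewhere, so the comparison of BEC with D0 A could not be repeated. Thinning in small duct-like cells and 3000 UMIs in hepatocyte-like cells left too few cells to be run, and D0 A could not be left out where it is the only control. Comparisons within a library were paired by library. Between diet groups, no paired analysis was possible because the labels give no replicate numbers and A and B are isolation protocols, which stand in the fits as a term. Steady-state BEC rest on 1 library, and large duct-like cells on 14 to 72 cells in most others, which limits every level given for them.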

Other observations

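Mesothelial-like cells held 5.49 to 24.8 CPM of Angptl4 in 6 libraries (36 UMIs in all), with 9.20 CPM in D0 A. Type 2 dendritic cell-like (cDC2-like) cells held almost none, 0 to 0.991 CPM in 13 libraries, below barcodes under 100 UMIs in all of them, but 9.70 to 82.6 CPM of Ppard, above those barcodes in 11 of 13. Neutrophil-like cells held 0 to 61.2 CPM of Ppard and monocyte-like cells 10.3 to 67.9 CPM, each over 12 libraries, so that single myeloid libraries reached the level of large duct-like BEC. Cells of unnamed clusters held 0 to 15.1 CPM of Angptl4 and 4.96 to 59.0 CPM of Pdk4.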
